A study of Mus musculus with 38 samples.

Results

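Rhbg and a set of zonated liver genes around it were followed in mice given haloperidol, a dopamine receptor blocker used against psychosis. The set was defined by symbol as the perivenous genes Rhbg, Glul, Oat, Lgr5, Axin2 and Tbx3 and the periportal genes Cps1, Gls2, Ass1 and Arg1, and each gene was read from the array probe with that symbol alone and the highest mean over all arrays. Of the 10 genes named, 8 had such a probe, among 18820 genes in all; Gls2 and Ass1 were not analysed here. Rhbg entered the set because it had the smallest unadjusted p of all liver genes between haloperidol and placebo, so its liver change is described below without a test. The other genes were listed for their place in the lobule, with earlier results of these data known.

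The arrays came from C57BL/6J mice, an inbred strain, bred from animals a few generations removed from purchased founders. Haloperidol livers (9 mice) and haloperidol whole brains (10 mice) came from animals with slow-release haloperidol pellets for 30 days, and placebo livers (9 mice) and placebo whole brains (10 mice) from animals with placebo in its place. No genotype differed between groups. The sources used here do not state an age. The authors normalized the log2 values with RMA before deposit, every change is haloperidol minus placebo, and the number of arrays limits the precision. The tissues appear to have been normalized apart, so levels are compared within a tissue only, and the level of a gene is not set against that of another gene.

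Marker genes fitted the tissue labels. In liver Alb, the albumin gene, lay between 13.15 and 13.27 in haloperidol livers and between 13.13 and 13.23 in placebo livers. In brain, the synaptic gene Snap25 lay between 12.72 and 12.86 with haloperidol and between 12.69 and 12.88 with placebo. One haloperidol brain, tagged 4T in its title, had Alb at 11.11, against 3.93 to 4.51 in the other 19 brains. The median over all probes was 4.79 to 5.05 in haloperidol livers and 4.70 to 4.91 in placebo livers, and 6.08 to 6.33 in haloperidol brains and 6.27 to 6.40 in placebo brains.

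The liver removes ammonia in sequence along the blood's path through the lobule. Periportal hepatocytes, which blood reaches first, hold the urea cycle, with Cps1 fixing ammonia as carbamoyl phosphate and Arg1 releasing urea. A narrow ring of perivenous hepatocytes around the central vein captures what escapes, taking up ammonium through the Rh glycoprotein Rhbg and binding it to glutamate with glutamine synthetase, the product of Glul. Oat, ornithine aminotransferase, makes a glutamate precursor in the same cells, and the identity of the ring depends on Wnt signals from the central vein, with Axin2, Lgr5 and Tbx3 as target genes. In brain, glutamine synthetase belongs mainly to astrocytes, where it clears glutamate and ammonia.

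Rhbg was lower in haloperidol livers. Its lowest, median and highest values were 6.60, 6.96 and 7.66 in haloperidol livers, against 7.40, 7.65 and 7.88 in placebo livers. Of the 9 haloperidol livers, 8 lay below the lowest placebo liver, and the remaining one, tagged 1B, lay at the placebo mean. A pattern of at least 8 haloperidol livers below the lowest placebo liver was found in 0.143% of the 12547 liver genes tested; this contrast chose Rhbg, and the share is given as a description. Rhbg averaged 6.98 ± 0.35 in haloperidol livers and 7.65 ± 0.18 in placebo livers (SD, n = 9 each), a change of -0.67, or 0.628 times the placebo level. The standard deviation was larger with haloperidol, where livers 1B (7.66) and 4L (7.38) stood above the other 7, which ran up to 7.05.

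The sample titles carry a tag of a digit and a letter, and the labels do not say what it marks. Within the livers of each of the 4 digits Rhbg was lower with haloperidol, by -0.44, -0.77, -0.97 and -0.38, although digit 2 held only 1 placebo liver. These are the same livers whose contrast chose Rhbg, so the values are a description and not a repeat of the result. Subtraction of each array's own median gave -0.76, and the array median as a covariate, chosen after seeing the data, gave -0.57. A second probe is listed under both Tsacc and Rhbg and names no single gene; it stood at 5.61 ± 0.20 in haloperidol livers and 5.63 ± 0.21 in placebo livers (SD, n = 9 each), and its Pearson correlation with the Rhbg probe over the 18 livers was 0.06. Of the genes tested in liver, 22 had a change lower than that of Rhbg.

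**Figure D1:**
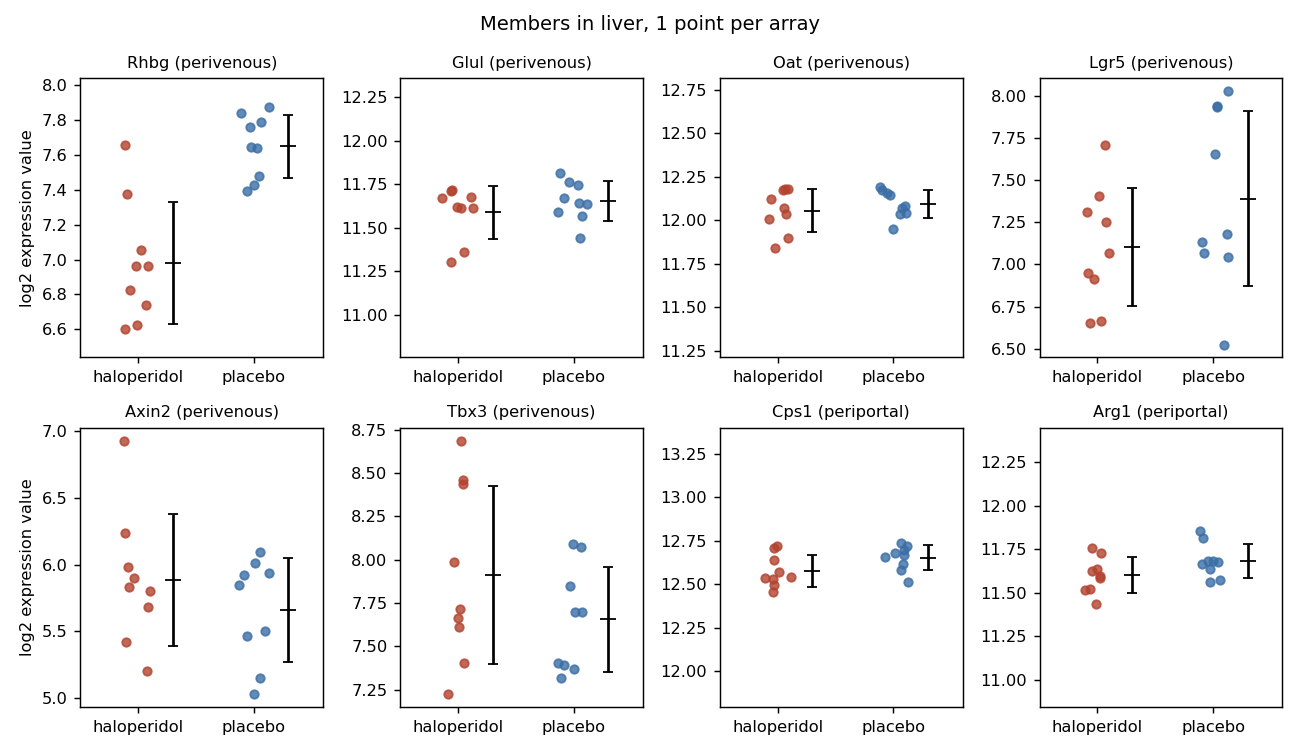
Log2 expression value (vertical axis, spanning at least 1.6 units in each panel) of the 8 genes in haloperidol and placebo livers; each point is 1 array and the black bar is the mean with its SD (n = 9 each). Rhbg separates the groups except for haloperidol liver 1B at 7.66, while the groups overlap in the other 7 panels.

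The first question was whether other perivenous genes were lower along with Rhbg. They were not called: of the 7 other genes in liver, 0 passed the threshold of 0.05 in limma with Benjamini-Hochberg adjustment, where 0% of the 12547 liver genes did. At an unadjusted p under 0.05 in limma 0 of the 7 were found, beside 10.5% of all genes, and a Wilcoxon test also called 0 genes in liver. The perivenous genes pointed both ways.

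Glul, the enzyme gene of the perivenous ring, had lowest, median and highest values of 11.30, 11.62 and 11.72 in haloperidol livers, against 11.44, 11.64 and 11.81 in placebo livers. The groups overlapped, with 2 haloperidol livers, 1B and 1R, below the lowest placebo liver. The change was -0.06 (SE 0.072, 95% interval -0.21 to 0.08, limma adjusted p = 0.758). A second Glul probe gave -0.07, and the 2 probes correlated at 0.75 over the 18 livers.

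Oat had lowest, median and highest values of 11.84, 12.07 and 12.18 in haloperidol livers, against 11.95, 12.08 and 12.19 in placebo livers. The medians and highest values nearly coincided, and 2 haloperidol livers lay below the lowest placebo liver. Its change was -0.04 (SE 0.063, 95% interval -0.17 to 0.09, limma adjusted p = 0.860). Glul and Oat thus had narrower intervals than the Wnt target genes below.

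The Wnt target genes were more variable. Lgr5, a receptor that raises the response to Wnt, had 6.65, 7.07 and 7.71 as its lowest, median and highest value in haloperidol livers, against 6.53, 7.18 and 8.03 in placebo livers. Both groups were spread widely, and 7 of 9 haloperidol livers lay below the placebo mean. The change of -0.29 (SE 0.19, 95% interval -0.68 to 0.11) had a limma adjusted p of 0.580.

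Axin2, a feedback inhibitor of Wnt signalling, had 5.21, 5.83 and 6.93 in haloperidol livers, against 5.03, 5.85 and 6.10 in placebo livers, with the highest value in liver 2L. The medians were nearly equal, and the change of 0.22 (SE 0.19, 95% interval -0.17 to 0.62) had a limma adjusted p of 0.676. Without haloperidol liver 2L the Axin2 change was 0.09, and it was 0.10 with the tag digit as a block and 0.06 with the array median as a covariate. Tbx3, a transcription factor of the perivenous ring, had 7.22, 7.72 and 8.68 in haloperidol livers, against 7.32, 7.70 and 8.09 in placebo livers. Its change was 0.25 (SE 0.18, 95% interval -0.12 to 0.63, limma adjusted p = 0.613), opposite in sign to Rhbg. Of the Tbx3 changes within tag digits, 2 were below 0 and 2 above, from -0.29 to 0.83.

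**Figure D2:**
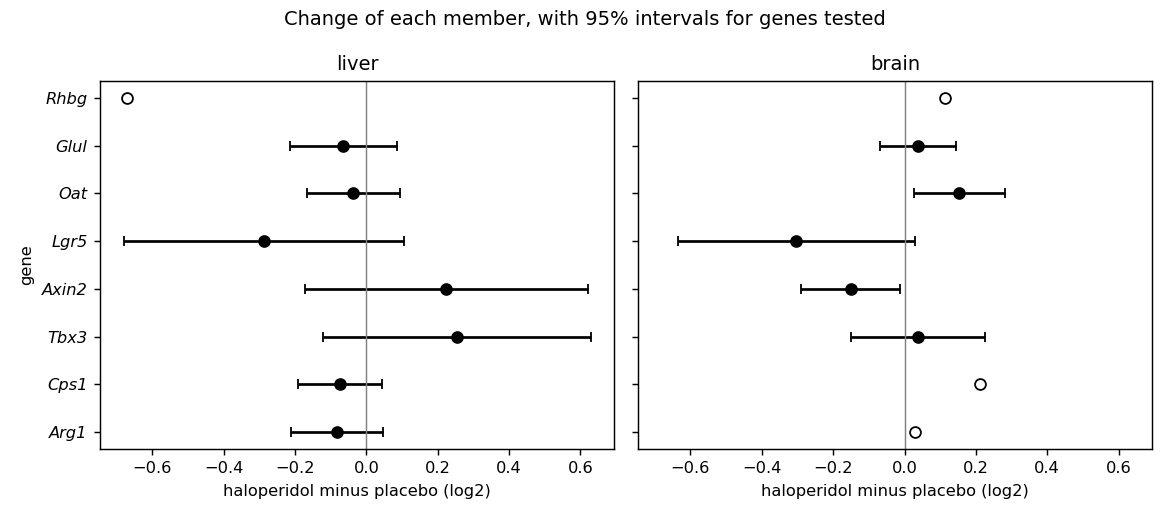
Haloperidol minus placebo on the log2 scale (horizontal axis) for the 8 genes in liver and in brain; filled points carry 95% intervals from limma, and open points are descriptions without an interval, because the gene was chosen from that contrast or lay below the limit for dim genes. Rhbg in liver is at -0.67, and the liver intervals of the other 7 genes all include 0.

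The periportal genes had small changes below 0. Cps1, the first enzyme of the urea cycle, had 12.45, 12.54 and 12.72 in haloperidol livers, against 12.52, 12.67 and 12.74 in placebo livers. The groups overlapped over most of their range, with a change of -0.07 (SE 0.057, 95% interval -0.19 to 0.04, limma adjusted p = 0.636). Arg1, which encodes arginase, the last enzyme of the cycle, had 11.44, 11.60 and 11.76 in haloperidol livers, against 11.56, 11.68 and 11.86 in placebo livers. Of the 9 haloperidol livers 3 lay below the lowest placebo liver, and the change was -0.08 (SE 0.062, 95% interval -0.21 to 0.05, limma adjusted p = 0.630). Ass1 had only 2 probes, each listed under Gm5424 as well, which name no single gene. Without a test, these probes changed by -0.15 and -0.14 in liver and by 0.45 and 0.46 in brain.

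Wider lists of each zone were read next. With 0 of the 12547 liver genes past the threshold, each of the 9 lists held 0 such genes, which sets no list apart. The lists share genes. Over all 12547 genes tested 57.4% of changes were below 0, with a median of -0.02. Of 9 perivenous Wnt targets tested, 3 had a change below 0 and the list median was 0.02, with Rnf43 at 0.06, Znrf3 at 0.02, Notum at 0.02 and Nkd1 at -0.15. Of 22 other perivenous hepatocyte genes 16 were below 0 (median -0.07), and of 21 periportal genes 14 were (median -0.07). The medians of the perivenous hepatocyte and the periportal list thus lay together.

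Of the 22 other perivenous genes the change of largest size was that of Slc13a3, which encodes a sodium-dependent dicarboxylate transporter. Slc13a3 averaged 7.67 ± 0.31 in haloperidol livers and 8.12 ± 0.15 in placebo livers (SD, n = 9 each), and all 9 haloperidol livers lay below the placebo mean. Its change of -0.45 (SE 0.11) did not pass, with a limma adjusted p of 0.323. Gulo, the last enzyme of vitamin C synthesis in mice, was at -0.15 (SE 0.058, adjusted p = 0.409).

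Among periportal genes the smallest p belonged to Cdh1, the E-cadherin gene, at -0.37 (SE 0.12), and Aldh1b1, a mitochondrial aldehyde dehydrogenase gene, at -0.33 (SE 0.11), with limma adjusted p of 0.367 and 0.380. All 9 haloperidol livers lay below the placebo mean for each of them. At least 8 haloperidol livers lay below the placebo mean for 10.6% of all liver genes tested. No test of a difference between zones was made.

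Among genes of nitrogen metabolism, of 8 urea cycle genes tested 7 had a change below 0 (median -0.08), led by Slc25a15, the mitochondrial ornithine transporter gene, at -0.24 (SE 0.070, limma adjusted p = 0.362, below the placebo mean in 9 of 9 haloperidol livers) and Otc, ornithine transcarbamylase, at -0.18 (SE 0.094). Of 12 genes of glutamine, glutamate, ornithine and proline enzymes 10 were below 0 (median -0.09). Odc1, ornithine decarboxylase of polyamine synthesis, was at 7.59 ± 0.38 in haloperidol livers and 8.03 ± 0.17 in placebo livers (SD, n = 9 each), a change of -0.44 (SE 0.13, limma adjusted p = 0.362). Aldh18a1, an enzyme gene of proline synthesis, was at -0.16 (SE 0.091).

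Apart from Rhbg, which is described without a test, no transport gene was called in liver, where 0% of the 12547 genes tested passed. In the list of Rh proteins and ammonia-permeable channels 3 of 7 genes passed the filter on dim genes; Rhcg, Rhag, Rhd and Aqp3 lay below the liver limit of 3.92 on average. The aquaporin gene Aqp9 was at 0.02 (SE 0.064) and Aqp8 at -0.002 (SE 0.24). Aqp9 changed sign with the array median subtracted or as a covariate. Of 13 amino acid transporter genes 8 were below 0 (median -0.09). Slc7a8 was at -0.29 (SE 0.11) and Slc3a2, the heavy chain gene of some of these transporters, at -0.17 (SE 0.071). Their limma adjusted p were 0.401 and 0.421.

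Of 19 genes of Wnt ligands, R-spondins, receptors and pathway components 11 were below 0 (median -0.01), and the frizzled receptor genes Fzd5 and Fzd7 were at -0.20 (SE 0.11) and -0.26 (SE 0.16). Of 12 regulators of zonation and nitrogen metabolism 8 were below 0 (median -0.03). Gcgr, the glucagon receptor gene, was at 0.17 (SE 0.12) and Nr1h4, the bile acid receptor gene, at 0.15 (SE 0.12). Gcgr had a change of -0.03 with the array median as a covariate.

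**Figure D3:**
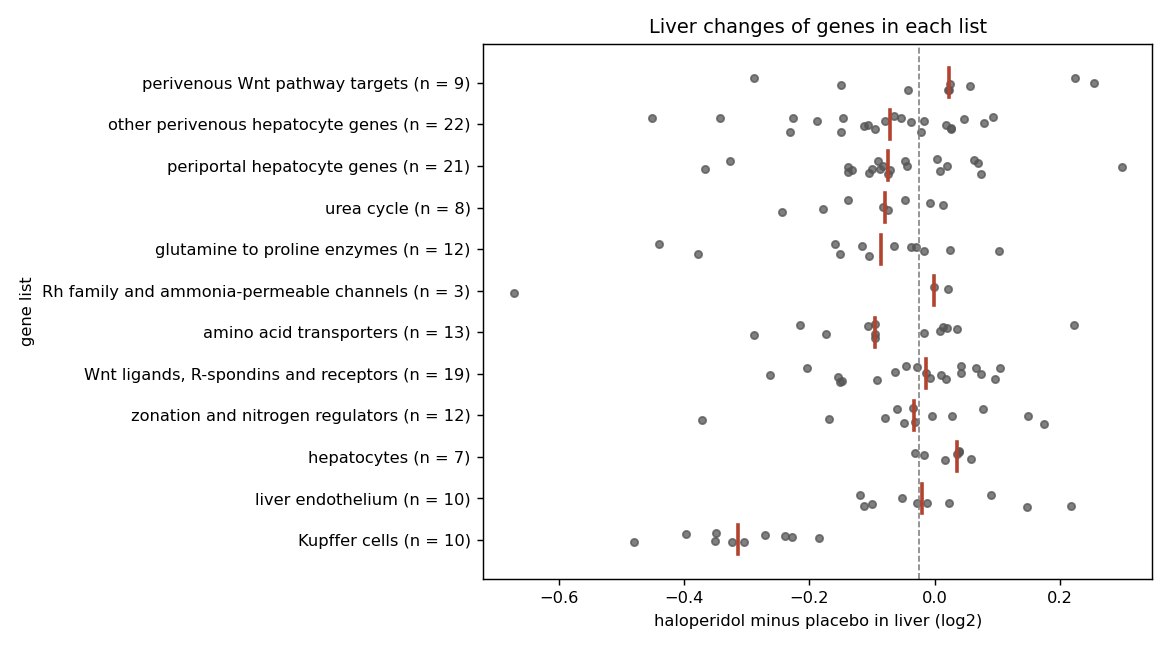
Haloperidol minus placebo in liver on the log2 scale (horizontal axis) for each gene tested in 12 gene lists (grey points, 1 gene each), with the list median as a red line and the median of all genes tested, -0.02, as a dashed line. The isolated point of the Rh family list is Rhbg at -0.67, and the perivenous and periportal hepatocyte medians both lie at -0.07.

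Markers of other liver cells were examined beside these values. Of 10 markers of Kupffer cells, the macrophages that reside in liver, 10 had a change below 0 and 7 an unadjusted limma p under 0.05, with a median of -0.31 and 0 past the threshold. Of all 12547 genes tested in liver, 57.4% had a change below 0 and 848 were lower at an unadjusted p under 0.05. The mean level of the Kupffer cell markers ran from 7.23 to 7.92 in haloperidol livers and from 7.30 to 8.15 in placebo livers. The part of these markers in the Rhbg result was not tested. The 7 hepatocyte markers had a median change of 0.04, with mean levels of 12.39 to 12.47 in haloperidol livers and 12.30 to 12.44 in placebo livers. Endothelial markers had a median of -0.02 over 10 genes, stellate cell markers 0.03 over 8, cholangiocyte markers -0.01 over 4, lymphocyte and neutrophil markers -0.11 over 3 and erythroid markers -0.03 over 2. Genes listed as brain astrocyte markers had a median of 0.01 over 7 genes in liver, and brain neuron markers 0.001 over 1. These genes need not mark such cells in liver. In bulk liver, fewer cells of a kind and less RNA per cell cannot be told apart.

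The next question was whether Rhbg varied with the other genes among livers of the same treatment, which the choice of Rhbg does not fix. None of the 14 relations (7 genes in each of 2 groups of 9 livers) passed after Benjamini-Hochberg adjustment of exact two-sided permutation tests. With Lgr5 the Pearson correlation was 0.34 in haloperidol livers and 0.31 in placebo livers (Spearman 0.32 and 0.33; exact permutation p of 0.376 and 0.402 for Pearson and 0.410 and 0.385 for Spearman, adjusted 0.709 and 0.729). Without the 2 livers farthest from the group's median of Rhbg, r was 0.07 in haloperidol livers and 0.57 in placebo livers.

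With Tbx3 the correlation was -0.47 in haloperidol livers and -0.30 in placebo livers (Spearman -0.45 and -0.39; exact permutation p of 0.199 and 0.417 for Pearson and 0.230 and 0.295 for Spearman, adjusted 0.709 and 0.729). In haloperidol livers it rested on 1B and 4L, without which r was 0.27. With Glul it was -0.44 in haloperidol livers and -0.03 in placebo livers (Spearman -0.55 and -0.25; exact permutation p of 0.217 and 0.943 for Pearson and 0.133 and 0.521 for Spearman, adjusted 0.709, 0.992 and 0.729). Glul itself followed the array median at 0.83 in placebo livers.

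The smallest p belonged to Arg1 in placebo livers, at r = -0.73 and Spearman's rho = -0.77 (exact permutation p = 0.0249 and 0.0214, adjusted 0.348 and 0.299). Without placebo livers 3T and 4B r was -0.97, and with each array centred on its own median it was -0.15. Centring subtracts the same value from both genes, which can itself move r upward. In haloperidol livers the same pair had r = -0.02. Within-group relations were tested for these 7 genes alone, not for the wider lists.

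**Figure D4:**
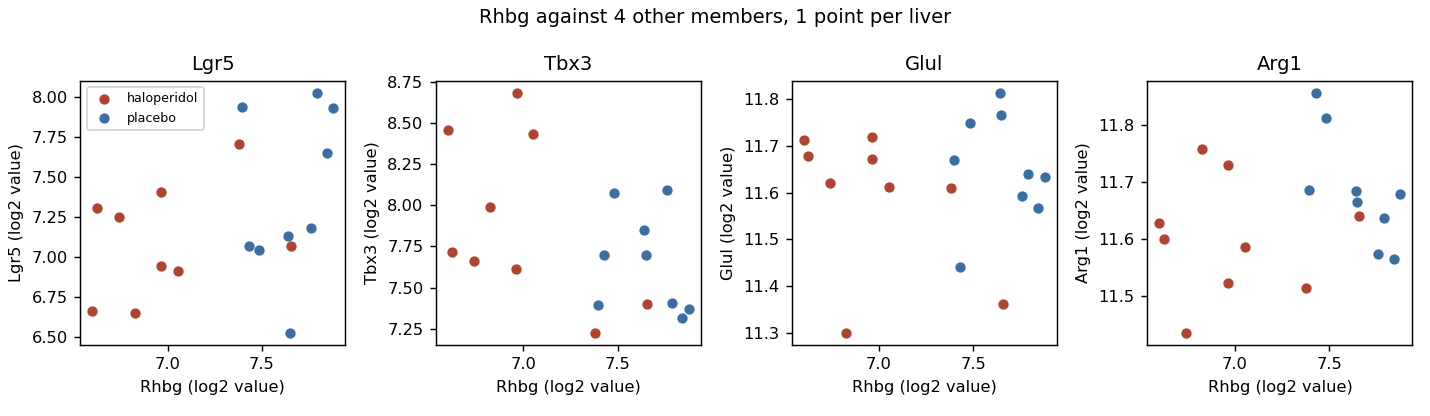
Log2 value of Rhbg (horizontal axis) against Lgr5, Tbx3, Glul and Arg1 (vertical axes) in the 18 livers, 1 point per liver, with haloperidol in red and placebo in blue. The groups are set apart along Rhbg except for haloperidol liver 1B, and within a group no pair passed, the r of largest size being -0.73 for Arg1 in placebo livers.

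The genes most like Rhbg over the 18 livers, after subtraction of each group's mean, came from outside the zonated lists. The highest Pearson correlations were those of P4hb (0.80), which encodes protein disulfide isomerase, the small GTPase genes Rap2a (0.80) and Rragc (0.80), Maip1 (0.75) and Cgrrf1 (0.75). The lowest were those of Ptp4a3 (-0.79), Peli3 (-0.78), Sh3bp1 (-0.76), Rnf144a (-0.75) and H2-Q8 (-0.74), the last a member of a family of near-identical class I genes whose probes may not separate them. Among the other 12546 genes the 5th and 95th percentile of r were -0.46 and 0.53. The 7 zonated genes ran from -0.43 for Tbx3 to 0.29 for Lgr5, inside these bounds. The genes were read from the same arrays and share their normalization, and these values are a description.

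In brain the set was measured in tissue where the perivenous role of its genes does not apply. Of the 8 genes 5 passed the filter on dim genes; Rhbg, Cps1 and Arg1 lay below the limit of 5.52 in brain. In limma 0 of the 5 passed, where 30.4% of the 12547 brain genes tested did; at an unadjusted p under 0.05 there were 2 of 5, Oat and Axin2, beside 44% of all genes. Rhbg had lowest, median and highest values of 4.17, 4.45 and 4.78 in haloperidol brains, against 3.89, 4.33 and 4.62 in placebo brains. These ranges overlapped, and its change of 0.11 had an unadjusted exact two-sided permutation p of 0.237. It was too dim for the test over all genes.

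Glul in brain had 12.11, 12.21 and 12.35 with haloperidol, against 11.98, 12.22 and 12.31 with placebo, a change of 0.04 (SE 0.051, 95% interval -0.07 to 0.14, limma adjusted p = 0.589). Its sign turned to -0.04 with quantile normalization. Subtraction of the array median, which adds the same amount to every brain change, gave 0.17 and a call (limma adjusted p = 0.0286). No direction held across these scalings. Oat had 9.82, 9.99 and 10.24 with haloperidol, against 9.56, 9.87 and 10.06 with placebo, and 9 of 10 haloperidol brains lay above the placebo mean. The change was 0.15 (SE 0.062, 95% interval 0.03 to 0.28, limma adjusted p = 0.0620). Oat passed without haloperidol 1R (0.0290) or 4L (0.0454), without placebo 4B (0.0363) or 4R (0.0489) and with the array median subtracted (0.00749). It changed sign, to -0.05, with the array median as a covariate, which overlaps with treatment in brain.

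In 28.6% of all brain genes tested at least 8 haloperidol brains lay below the placebo mean, and Axin2 (8) and Lgr5 (9) were among them. Axin2 in brain had 7.15, 7.39 and 7.69 with haloperidol, against 7.35, 7.51 and 7.70 with placebo, and 4 of 10 haloperidol brains lay below the lowest placebo brain. Its change was -0.15 (SE 0.067, 95% interval -0.29 to -0.01, limma adjusted p = 0.0880), and it passed without haloperidol 4L (0.0242). With each array centred on its own median the Axin2 change in brain was -0.01 (limma adjusted p = 0.895). Lgr5 had 7.85, 8.22 and 9.14 with haloperidol, against 8.06, 8.44 and 9.66 with placebo, with one high brain in each group, haloperidol 1R and placebo 1L. Its change of -0.30 (SE 0.16, limma adjusted p = 0.149) passed without haloperidol 1R (-0.40, 0.0314), and turned to 0.08 with the array median as a covariate. Tbx3 had 5.78, 6.41 and 6.54 with haloperidol, against 5.94, 6.34 and 6.64 with placebo, a change of 0.04 (SE 0.091, limma adjusted p = 0.774). With each array centred on its own median Lgr5 was at -0.17 and Tbx3 at 0.17 in brain, and neither passed (limma adjusted p of 0.404 and 0.112).

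Cps1 and Arg1 were dim in brain apart from haloperidol 4T, the array with a high Alb value. Cps1 was at 6.58 in that array, against 4.17 to 4.74 in the other 9 haloperidol brains, and Arg1 at 5.48, against 4.20 to 4.92. Without 4T the change of Cps1 was 0.001 in place of 0.21, and that of Arg1 was -0.05 in place of 0.03.

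**Figure D5:**
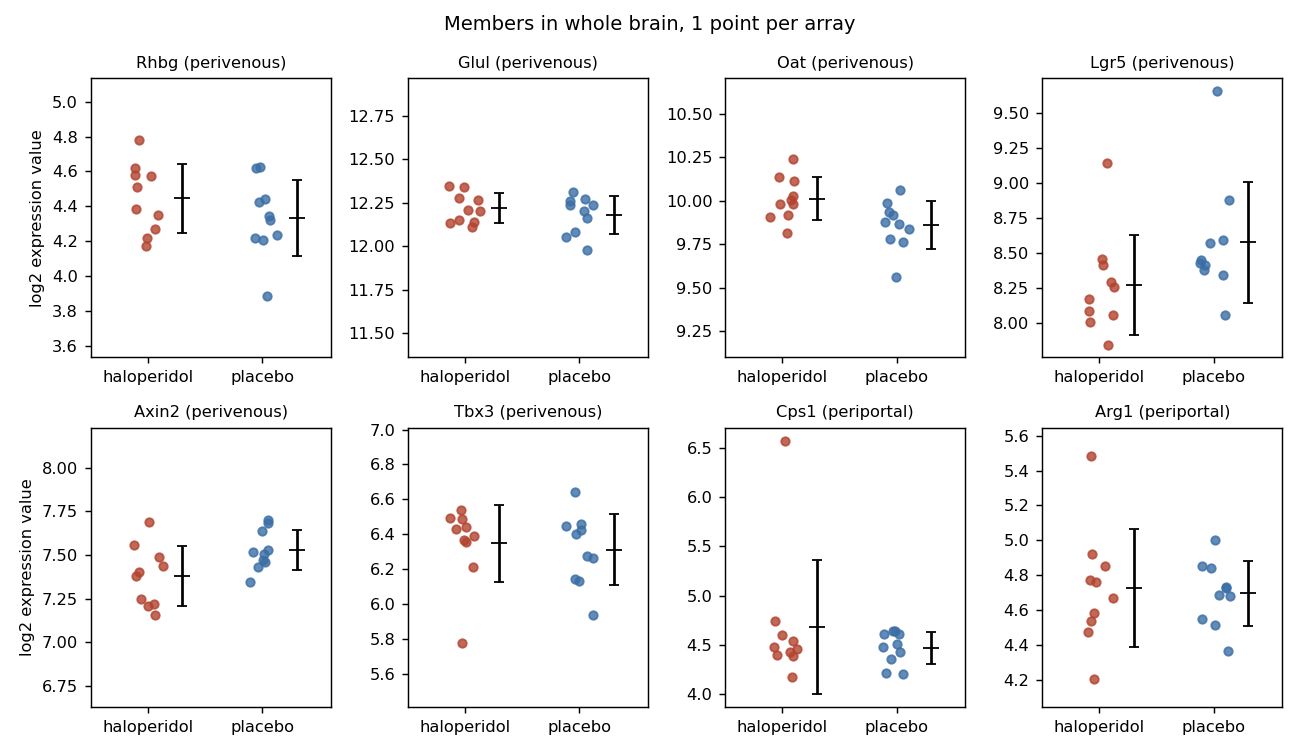
Log2 expression value (vertical axis) of the 8 genes in haloperidol and placebo whole brains; each point is 1 array and the black bar is the mean with its SD (n = 10 each). Cps1 has a single high haloperidol array at 6.58, and the groups overlap in every panel.

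Other genes of the pathway lists were called in brain, against a background of 15.2% of genes higher and 15.2% lower. Of 11 glutamine to proline enzyme genes tested, 1 rose and 1 fell: Odc1 rose by 0.38 (SE 0.090, limma adjusted p = 0.00543) and lay above the placebo mean in 10 of 10 haloperidol brains, and Aldh18a1 changed by -0.22 (SE 0.051, adjusted p = 0.00511). In liver Odc1 was at -0.44 without passing, and its difference between tissues was not compared. Of 3 urea cycle genes tested 1 rose, Asl, argininosuccinate lyase, at 0.26 (SE 0.089, adjusted p = 0.0323), which is also the 1 periportal gene of 7 that rose. The call of Asl ended on leaving out any 1 of 7 arrays (haloperidol 3B, 3R or 4N, or placebo 1L, 2B, 2R or 3L; limma adjusted p of 0.0501 to 0.0612).

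Of 14 amino acid transporter genes tested in brain 3 fell and 0 rose. These were the neutral amino acid transporter genes Slc38a2 (-0.32, SE 0.074, limma adjusted p = 0.00521) and Slc38a1 (-0.18, SE 0.067, adjusted p = 0.0460), and Slc1a1, a neuronal glutamate transporter gene (-0.27, SE 0.094, adjusted p = 0.0351). Of 19 Wnt pathway genes 2 fell, the co-receptor gene Lrp6 (-0.28, SE 0.078) and Apc (-0.21, SE 0.063), and of 8 Wnt targets 1 fell, Rnf43 (-0.18, SE 0.066), with limma adjusted p of 0.0122, 0.0176 and 0.0445. Of 7 regulators Dicer1 fell (-0.40, SE 0.087) and Yap1 rose (0.20, SE 0.061), with limma adjusted p of 0.00453 and 0.0172. None of the 12 other perivenous genes passed, nor did Aqp9, the single channel gene tested. Lhpp, at 0.30 (limma adjusted p = 0.0621), passed in 6 alternatives (centred arrays, array weights, all 38 arrays, and without haloperidol 1R, 2N or 4L; limma adjusted p of 0.0141 to 0.0344).

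These brain calls moved with array-wide measures. With the array median as a covariate 0 of the 12547 brain genes passed in limma. The array median averaged 6.19 (SD 0.072) in haloperidol brains and 6.33 (SD 0.044) in placebo brains. The covariate thus overlaps with treatment, and this fit cannot separate them. Subtraction of the array median adds the same amount to every brain change, and the median change of all genes moved from -0.02 to 0.12. With the median subtracted Aldh18a1, Slc1a1, Slc38a1, Lrp6, Apc and Rnf43, all of which fell, no longer passed (limma adjusted p of 0.120 to 0.660). With 3 arrays left out (4N and 4T of haloperidol, 1L of placebo), the calls of Asl, Slc1a1, Slc38a1, Rnf43, Apc and Yap1 ended (limma adjusted p of 0.0506 to 0.143). The calls of Slc1a1, Slc38a1 and Rnf43 also ended in 9, 14 and 11 of the 20 fits that left out 1 array each. Slc1a1 was at -0.06 (limma adjusted p = 0.570) with the mean of all its probes in place of the brightest. With a Wilcoxon test Slc1a1, Slc38a1, Rnf43 and Yap1 did not pass (adjusted p of 0.0551 to 0.126). Slc38a1 and Rnf43 did not pass without the filter on dim genes or in the fit of all 38 arrays (limma adjusted p of 0.0665 to 0.272), nor Slc38a1 with the tag digit as a block (0.0582), nor Rnf43 with an intensity trend (0.0618). Among 9 astrocyte markers 1, S100b, rose (0.41), with a list median of 0.08, and among 6 neuron markers 1 fell, with a median of -0.11. Genes listed as markers of liver cells need not mark those cells in brain. Of these lists, 2 of 7 endothelial, 1 of 4 stellate and 2 of 5 Kupffer cell genes rose in brain and 0 fell. The 1 gene tested of the hepatocyte list and the 1 of the cholangiocyte list did not pass. Of erythroid markers 1 of 1 rose, and no lymphocyte or neutrophil marker was tested. The part of these markers in the calls above was not tested.

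The effects in the tissues were compared in a fit of all 38 arrays over the 10869 genes kept in both. Of the 5 genes of the set in that fit 0 differed between liver and brain in limma, where 23% of genes did. The liver effect minus the brain effect was -0.19 (SE 0.086, limma adjusted p = 0.103) for Oat, 0.37 (SE 0.20, adjusted p = 0.167) for Axin2 and -0.10 (SE 0.085, adjusted p = 0.395) for Glul. It was 0.22 (SE 0.20, adjusted p = 0.453) for Tbx3 and 0.01 (SE 0.25, adjusted p = 0.975) for Lgr5. Centring each array on its own median shifts the difference of every gene by the same amount. In that fit 4345 genes differed, 4073 of them lower in liver than in brain. Glul (-0.32, limma adjusted p = 0.00409) and Oat (-0.41, adjusted p = 0.00271) were among them. Each of 18 tags is carried by a brain and a liver array of the same treatment, and the labels do not say whether these came from 1 mouse. With the tag as a replicate block 0 of the 5 genes differed (limma adjusted p of 0.110 to 0.977). For Rhbg, dim in brain, the difference between tissues was not tested.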

How the data were processed

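The deposited log2 expression values per probe were made by the authors with Expression Console (Affymetrix) and RMA. The tool names come from the submitters' processing notes, without versions. RMA corrects background, gives arrays a common distribution and summarises probes, so a change of total RNA is not visible. Sorted values of any array lay within 0.21 (brain) or 0.23 (liver) of the tissue's mean distribution, while the tissues differed by up to 1.42.

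Of 35556 probes, 21218 had 1 gene symbol in the platform annotation of GEO (possibly dated), 1881 had several and 12457 were unnamed here; 21185 matched RefSeq by Entrez ID and 0 symbols changed. The probe with the highest mean was used per gene, and the 33.3% of genes with the lowest mean in a tissue were left out. Tests were made with limma 3.58.1 in R 4.3.3 (lmFit, eBayes), two-sided, with Benjamini-Hochberg adjustment over all genes tested. Correlations used exact enumeration of all pairings of 9 livers. Array correlations within groups were 0.964 to 0.992, so no array was counted as a repeat. The genes of the set and the 18 gene lists were chosen with earlier results of these data known. The text names all genes of the set, up to 4 passing genes per pathway list and tissue (otherwise the 2 of smallest p), and the 5 genes most and least correlated with Rhbg; other Wnt targets, Rh family genes and S100b were named after their values were seen. On simulated data over 12547 liver genes, 12.3% of changes of 0.25, 64.5% of 0.5 and 92.3% of 1 log2 unit were recovered, with 4 false calls. Each gene was drawn independently from normal distributions, and 65, 62 and 65 genes were changed at these sizes. In the deposited livers genes vary together and 0 passed, so these shares need not hold there.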

Additional observations from a re-analysis of the deposited data

Results flagged for a closer look

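Gaps between the highest or lowest array and its neighbour were examined in 32 groups (8 genes in 4 groups), where chance flags about 1 in 20. There were 4 large gaps, all in brain: Cps1 at 6.58 in haloperidol 4T, Lgr5 at 9.14 in haloperidol 1R and at 9.66 in placebo 1L, and Tbx3 at 5.78 in haloperidol 4N. No liver array had such a gap for any of the 8 genes.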

How the results depend on the processing

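In liver the changes of the 8 genes kept their sign under all 232 alternatives run, with ranges of -0.76 to -0.57 for Rhbg, -0.15 to -0.02 for Glul, -0.12 to -0.01 for Oat, -0.40 to -0.21 for Lgr5, 0.06 to 0.31 for Axin2, 0.06 to 0.34 for Tbx3, -0.16 to -0.04 for Cps1 and -0.17 to -0.04 for Arg1. Alternatives that altered only the filter on dim genes, the variance model or the test could not move a change, so their kept signs carry no information. The count of liver genes that passed in limma was 0, 0 to 1 when 1 array was left out and 40 in a fit of all 38 arrays; the 1 gene was Rhbg, without haloperidol 1B (-0.76), and that contrast had chosen it. Aqp9 in liver turned to -0.064 with arrays centred on their median and to -0.0091 with the median as a covariate, and Gcgr to -0.025 with the covariate. In brain 3816 genes passed (1911 higher, 1905 lower), 4555 with arrays centred (4088 higher, 467 lower), where the median change of all genes moved to 0.12 in place of -0.02, 2530 with 3 arrays left out (4N and 4T of haloperidol, 1L of placebo), and 0 with the array median as a covariate (both chosen after seeing the data). Leaving out 1 array gave 2873 to 4814. With the covariate, which overlaps with treatment in brain, Oat (-0.049), Lgr5 (0.083), Asl (-0.032), Lhpp (-0.040), Aqp9 (-0.28) and Apc (0.013) changed sign there. Glul was at -0.041 with quantile normalization. Aqp9 in brain was at -0.027 with array weights, -0.072 without the 3 arrays and -0.014 to 0.11 when 1 array was left out (below 0 without haloperidol 4T); Tbx3 was at -0.0047 (without placebo 3T) to 0.10. The liver and brain effects differed for 2502 genes (996 higher, 1506 lower), and for 4345 (272 higher, 4073 lower) with arrays centred, where Lgr5 was at -0.21 and Tbx3 at -0.0052. With the shared tag as a replicate block 2364 genes differed; deviations of same-tag arrays had a median correlation of 0.0011 over 18 pairs, 5 of them over 0.1, which does not settle whether a tag marks 1 mouse, and no call of the set changed. For correlations, centring subtracts the same value from both genes, which can itself move r upward. Correlations with Rhbg that changed sign with arrays centred were Oat (0.31) and Arg1 (0.39) in haloperidol livers and Glul (0.12), Oat (0.21) and Cps1 (0.31) in placebo livers. Without the 2 farthest livers they were Oat (0.070), Axin2 (0.26), Tbx3 (0.27), Cps1 (-0.27) and Arg1 (0.099) in haloperidol livers and Glul (0.032) and Axin2 (-0.21) in placebo livers, and Cps1 in haloperidol livers had a Spearman rho of -0.033. The cause of these differences was not tested.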

Other observations

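Tbx3 stood apart in haloperidol livers with the tag digit 2. These 3 livers lay at 8.44 to 8.68, above all other 15 livers, which ran from 7.22 to 8.09. What the digit marks is not given in the sources used here, and the pattern was noticed after the values were seen.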
